A study of Homo sapiens and Homo sapiens
Mus musculus and Mus musculus with 200 samples.

Results

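The loci described here are those of 10 genes of 2 signalling pathways, platelet-derived growth factor (PDGF) and hedgehog: PDGFC, PDGFRA, PDGFRB, PTCH1, GAS1, BOC, HHIP, GLI1, GLI2 and GLI3. A region belonged to a locus when it lay within 100 kb of a GENCODE transcript start of the gene, and 353 of the 213151 ATAC-seq regions over which H3K27ac was counted did so. Such a region is called a row below, and the gene that names its locus need not be the gene it acts on. The peaks of 70 deposited lists were chosen by the same window, with the mouse orthologues in the 5 mouse lists.

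The study of 200 chromatin immunoprecipitation sequencing (ChIP-seq) samples asked how the bHLH factor TWIST1 and homeodomain factors share binding sites in face and limb mesenchyme. Its main cells were human cranial neural crest cells (hCNCC) made from the H9 embryonic stem cell line. H3K27ac, an acetylated histone that marks active promoters and enhancers, was counted in 6 lines treated with the degrader dTAGV-1 at 500 nM for 0, 3 and 24 h, with 2 libraries at each time. TWIST1 binding was listed in hCNCC, in the leukaemia line RS4;11 and in mouse tissues, and TWIST1 or V5 binding in HEK293, a human kidney line harvested 24 h after transfection. The plasmids carried TWIST1 (pCAG) or V5-TWIST1, each alone or with ALX4, and V5-TWIST1 also with PRRX1a, PRRX1b, MSX1 or PHOX2A. V5-TWIST1(WT) and 13 variants were each given alone or with ALX4. The variants are labelled by NEUROD1, NEUROG2, TAL1 or HAND2, or by the change L138F or L138Y. Other HEK293 cells were given V5-NEUROD1, alone or with ALX4, or only pUC19. Of the hCNCC lines, WT cells carry no degradable tag, so dTAGV-1 has no tagged target there. In TWIST1FV cells TWIST1 carries the tag, and both replicates came from clone c64. ALX1FV (clones c17 and c33), PRRX1FV (c10 and c14) and MSX1FNV (labelled c93 and 69) carry the tag on the homeodomain factor in their name. ALX1FV ALX4- (c22 and c14) carries the ALX1 tag and also lacks ALX4, in its 0 h controls too. The TWIST1FV and WT depletion samples also held O9-1 mouse crest chromatin, whose reads were not used here. The mouse lists came from the frontonasal process (FNP), maxillary (Mx) and mandibular (Md) prominences, forelimb (FL) and hindlimb (HL) at E10.5, a mid-gestation stage, 1 list each.

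PDGFC is a secreted ligand of the tyrosine kinase receptor PDGFRA, and PDGFRB is the related receptor of mural and mesenchymal cells. Hedgehog ligands bind PTCH1 with the co-receptors GAS1 and BOC, which relieves the block on Smoothened and lets the zinc finger factors GLI1, GLI2 and GLI3 regulate their targets. HHIP is a membrane protein that binds and sequesters the ligand, and both pathways are known to be needed for the facial mesenchyme that the cranial neural crest forms. TWIST1 binds E-boxes, and homeodomain factors such as ALX1, ALX4, PRRX1 and MSX1 bind AT-rich words.

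The DNA of 10 TWIST1 sites is printed first, since each is the site of a change or a persistent peak described below or holds both kinds of word. Each is the plus strand of hg38, read 5′ to 3′. The first 7 are 201 bp windows centred on a TWIST1 peak summit, and the last 3 are a composite word with 20 bp on either side. Capitals mark an E-box (any of the words CAGATG and CAGCTG and CATATG and CATCTG) or a homeodomain word (TAATTA or TAATTG or CAATTA). The first 4 sites lie in the TWIST1-bound rows whose H3K27ac fell furthest at their loci.
BOC largest fall, chr3:113180680-113180880: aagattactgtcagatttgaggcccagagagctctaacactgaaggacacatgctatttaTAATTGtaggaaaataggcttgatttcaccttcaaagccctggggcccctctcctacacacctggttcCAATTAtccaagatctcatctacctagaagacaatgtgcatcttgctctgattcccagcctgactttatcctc
GAS1 largest fall, chr9:86925813-86926013: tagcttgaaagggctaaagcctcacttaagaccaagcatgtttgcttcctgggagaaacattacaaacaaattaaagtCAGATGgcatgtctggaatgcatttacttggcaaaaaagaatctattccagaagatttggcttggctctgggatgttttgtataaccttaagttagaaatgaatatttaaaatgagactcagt
GLI2 largest fall, chr2:120683127-120683327: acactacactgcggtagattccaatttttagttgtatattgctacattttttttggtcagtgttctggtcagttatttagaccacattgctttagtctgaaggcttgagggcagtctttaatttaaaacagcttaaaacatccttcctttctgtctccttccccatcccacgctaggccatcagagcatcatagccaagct
HHIP largest fall, chr4:144820546-144820746: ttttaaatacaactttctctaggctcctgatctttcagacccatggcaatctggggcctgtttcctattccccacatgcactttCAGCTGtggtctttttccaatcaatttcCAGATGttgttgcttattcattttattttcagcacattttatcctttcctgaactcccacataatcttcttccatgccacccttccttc
The next pair kept a TWIST1 peak in both replicates after 3 h of dTAGV-1, and the site after them lies in the bound row with the largest rise.
PDGFRB site listed at 3 h, chr5:150158252-150158452: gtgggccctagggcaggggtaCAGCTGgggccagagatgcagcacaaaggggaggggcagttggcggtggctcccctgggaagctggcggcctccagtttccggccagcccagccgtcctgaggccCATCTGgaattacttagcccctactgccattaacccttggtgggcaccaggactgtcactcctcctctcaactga
PTCH1 site listed at 3 h, chr9:95462736-95462936: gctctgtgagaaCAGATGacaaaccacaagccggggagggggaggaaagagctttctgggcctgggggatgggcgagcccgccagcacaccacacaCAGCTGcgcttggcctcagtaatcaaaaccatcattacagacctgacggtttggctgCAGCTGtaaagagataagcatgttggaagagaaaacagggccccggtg
GLI3 largest bound rise, chr7:42024256-42024456: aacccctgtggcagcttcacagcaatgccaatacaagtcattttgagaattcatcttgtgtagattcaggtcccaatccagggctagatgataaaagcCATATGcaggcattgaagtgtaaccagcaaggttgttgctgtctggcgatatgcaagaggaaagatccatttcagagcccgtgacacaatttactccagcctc
The remaining sites hold an E-box and a homeodomain word 4 bp apart.
GLI3 composite, chr7:42253137-42253192: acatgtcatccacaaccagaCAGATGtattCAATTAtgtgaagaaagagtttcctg
GAS1 composite, chr9:87020423-87020478: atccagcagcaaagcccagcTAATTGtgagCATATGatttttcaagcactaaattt
PTCH1 composite, chr9:95572584-95572639: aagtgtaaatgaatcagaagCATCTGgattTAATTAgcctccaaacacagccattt
The windows of the BOC and GLI2 falls hold no E-box of these words. The BOC window holds 2 homeodomain words and the GLI2 window neither kind. The PTCH1 site listed at 3 h holds 3 E-boxes, and the PDGFRB site listed at 3 h holds 2.

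Letters of this kind were about as common at these loci as elsewhere. The reference set was the 42318 peaks of WT replicate 1 at 0 h that overlapped a peak of replicate 2, and 111 of them lay at the 10 loci. An E-box, searched on both strands in the 201 bp around the summit, was present in 65.8% of the 111 and in 67.5% of all reference peaks. A homeodomain word was present in 28.8% and 25.3%. The composite of both words with a 4 bp gap, in either order, was present in 3 of the 111 (2.70%) and in 2.71% of all. BOC and GAS1 had the highest shares of peaks with a homeodomain word, 5 of 10 and 6 of 13, and GLI2 had 1 of 14. The words may overlap other motifs, and a word is a match of letters, not a measured contact.

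The cells carried marks of neural crest. The promoter rows of 8 crest genes, among them TFAP2A, SOX9 and TWIST1, held 212 to 2154 counts in every library, against a median of 8.5 counts over all rows. POU5F1 and NANOG had no row. The promoter row of the stem cell gene LIN28B held 481 to 1022 counts, that of DPPA4 held 38 to 129, and those of the neural genes SOX1, PAX6 and SOX2 held at most 32, while that of the neural gene NEUROG1 ran from 2 to 134 with a median of 11. Library totals over all rows ran from 5137169 to 9173063 counts, and counts below are printed unscaled. Statements that groups overlap or lie apart hold for the levels scaled to library size as CPM. At the loci between 80.5% and 89.2% of the values in each library were even, as can occur if both mates of a pair were counted, and the sources used here do not state how mates were counted. Nothing in the labels says that the 2 TWIST1FV or WT libraries at a time came from separate cultures, so p-values measure the spread between these libraries.

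Few TWIST1 peaks were listed at these loci after 3 h of dTAGV-1 in TWIST1FV cells. The WT lists held 147 and 131 peaks at the loci before treatment and 143 and 150 after 3 h. Those of TWIST1FV went from 104 and 81 peaks to 5 and 3. Of the TWIST1FV peaks at 0 h, 4.81% (95% Clopper-Pearson interval 1.58 to 10.9) in replicate 1 and 3.70% (0.770 to 10.4) in replicate 2 still overlapped a peak of that replicate at 3 h. In WT these shares were 82.3% (75.2 to 88.1) and 93.1% (87.4 to 96.8). Over all peaks the shares were 2.45% and 2.94% in TWIST1FV and 76.8% and 81.8% in WT. The values of the 2 lines did not overlap, and an exact two-sided permutation test gave p = 0.333, the smallest that 2 lists against 2 can give. The intervals cover counting error only, and the read depth behind the lists is unknown.

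**Figure D1:**
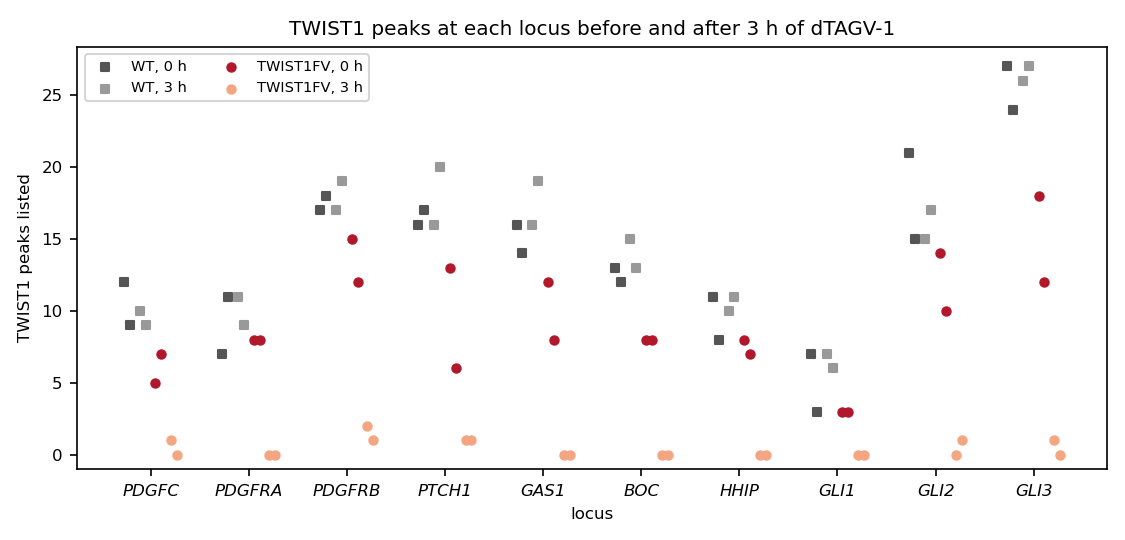
Number of TWIST1 peaks listed at each locus (y axis) in WT and TWIST1FV cells at 0 and 3 h of dTAGV-1, with 1 point for each of 2 replicate lists. The WT points at 3 h lie among those at 0 h, while the TWIST1FV lists at 3 h hold 5 and 3 peaks in all.

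Few sites kept a peak. A site 2240 bp upstream of PDGFRB, chr5:150158112-150158619, was listed in both TWIST1FV replicates at 3 h, with the authors' -log10 q at 62.5 and 68.5. Its values in WT at 0 h were 480.5 and 513.5. A PTCH1 site near an internal start, chr9:95462612-95463050, was also listed in both, at 19.5 and 8.29, against 464.7 and 472.8 in WT. That start is at 95461889, while the canonical start of PTCH1 is at 95509266. Replicate 1 alone listed a PDGFRB exon site (3.70), the PDGFC site chr4:156686248-156686510 (8.02) and a GLI3 intron site (8.24), and replicate 2 alone listed a GLI2 intron site (9.90). The authors' values rank peaks within a list only. Below, the strongest peak of a human locus is that of WT replicate 1 at 0 h, and in replicate 2 another site led at PDGFRB, GLI3, HHIP and GAS1.

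Both persistent sites were also among the few V5 peaks of the homeodomain lines. Every V5 peak of ALX1FV and ALX1FV ALX4- at the loci lay where both WT lists had TWIST1. How many of all peaks kept at 3 h had a V5 peak was not counted, so this does not set these sites apart. V5 lists of ALX1FV held 6 of 1389 and 2 of 376 peaks at the loci, and those of ALX1FV ALX4- held 3 of 920 and 4 of 1116. The PDGFRB site was in all 4 lists, with -log10 q of 15.96 and 11.4 in ALX1FV and 10.8 and 8.29 in ALX1FV ALX4-. The PTCH1 site was in 3 lists (7.26 in ALX1FV replicate 2, 1.84 and 6.97 in ALX1FV ALX4-). The PDGFRA promoter was listed in replicate 1 of each line (1.71 and 4.19). BOC had 3 V5 peaks, each in 1 list, at chr3:113167237-113167597 (3.35) and chr3:113275930-113276365 (1.71) in ALX1FV and at chr3:113241579-113242142 (3.63) in ALX1FV ALX4-. The PDGFC site that replicate 1 listed at 3 h (11.3) and a PDGFRB site within CSF1R (4.44) were in ALX1FV replicate 1, and a GLI2 intron site (6.89) was in ALX1FV ALX4- replicate 2. MSX1FNV listed 0 of 50 and 0 of 278 V5 peaks at the loci and PRRX1FV 0 of 2 and 0 of 1, lists too short to say whether these factors bind there. The V5 list of HEK293 cells given only the pUC19 plasmid had 1 peak at the loci, in GLI3 (2.73).

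H3K27ac at the loci moved in both directions in TWIST1FV cells. In these bulk samples a lower mark per cell and fewer cells with the mark cannot be told apart. Of the 300 rows tested there, 6 rose and 12 fell at 3 h by edgeR's quasi-likelihood test at a Benjamini-Hochberg adjusted p under 0.05. Over all rows tested in that fit 1.01% rose and 4.28% fell. At 24 h 25 rose and 37 fell, 8.33% and 12.3% of the 300, where 4.28% of all rows rose and 9.49% fell. All 6 rises and all 12 falls at 3 h were also called at 24 h, in a contrast that shares the same 0 h libraries. Between 3 and 24 h 2 rows fell further and 0 rose, where 0.601% of all rows fell and 0.289% rose. The median log2 change of the loci's rows was 0.07 at 3 h and 0.09 at 24 h, against 0.02 and 0.03 over all rows. Leaving out the 0 h library of replicate 1 left 1 rise and 7 falls at 3 h, and leaving out the 0 h or 3 h library of replicate 2 also left 7 falls. At 24 h the counts were 15 and 24 without 0 h replicate 2, and 16 and 22 without 24 h replicate 2. With the replicate number as a block, 17 rose and 27 fell at 3 h, where 3.19% and 7.28% of all rows did. At 24 h 35 rose and 45 fell with it, where 6.86% and 11.9% did, and 7 rose and 7 fell between 3 and 24 h, where 1.35% and 2.44% did. Same-numbered TWIST1FV libraries deviated from their group means together, with correlations of 0.212 to 0.302. With the block the promoter rows of PDGFRA (-0.40, adjusted p = 0.00194), PDGFC (0.54, adjusted p = 0.00854), GLI2 (-0.53, adjusted p = 4.29e-04) and BOC (-0.61, adjusted p = 0.0151) were called at 3 h.

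WT cells on the same schedule had no called row, here or over all rows (0% called at 3 h and 0% at 24 h). The difference in response between the lines was tested in 1 joint fit of all 36 libraries. The response of TWIST1FV exceeded that of WT in 4 of 338 rows at 3 h and was below it in 8, where 0.253% and 2.1% of all rows were. At 24 h it was higher in 9 rows and lower in 26, where 1.16% and 4.92% of all rows were. All 9 of the higher rows and 23 of the 26 lower rows were also called in TWIST1FV alone at 24 h. At 3 h 2 of the 4 and all 8 were. Without WT 24 h replicate 2, 5 rows were higher at 24 h. With the replicate number as a block, 10 rows were higher and 17 lower at 3 h, where 0.96% and 3.71% of all rows were, and at 24 h 20 were higher and 38 lower, where 2.08% and 6.51% were.

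**Figure D2:**
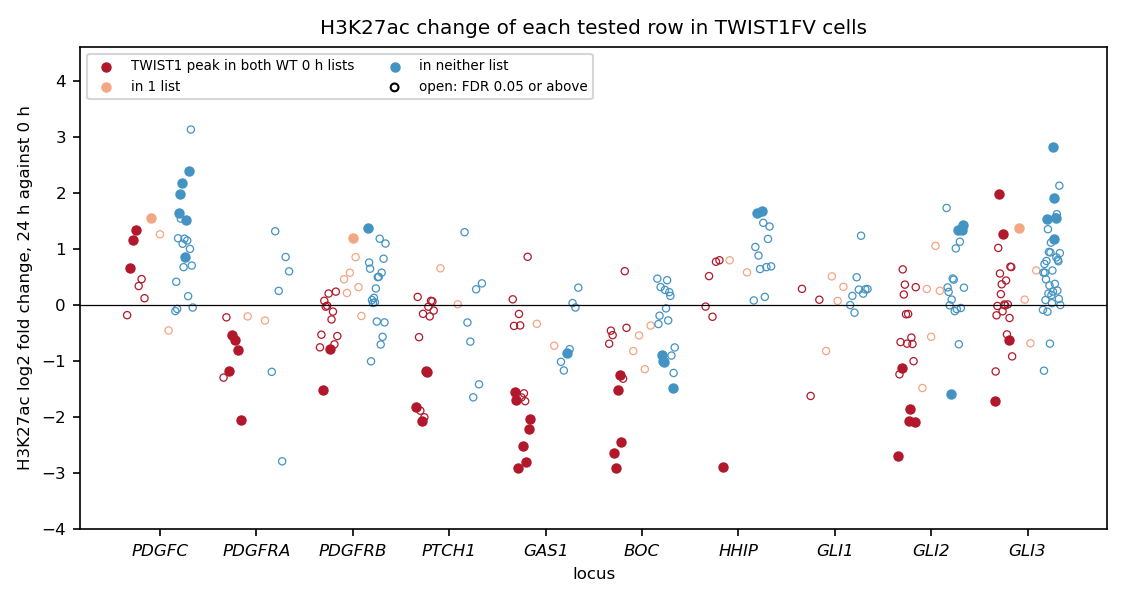
Log2 change of H3K27ac from 0 to 24 h of dTAGV-1 in TWIST1FV cells (y axis) for each tested row of each locus, filled where the adjusted p was under 0.05. GAS1 and BOC have called falls and no called rise, PDGFC has called rises and no called fall, and GLI1 has neither.

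Rows with and without TWIST1 binding gave different counts. Of the 114 tested rows that overlapped a TWIST1 peak in both WT lists at 0 h, 31 fell at 24 h (27.2%) and 5 rose (4.39%), where 29.1% and 2.23% of all such rows did. Of the 151 rows with a peak in neither list, 6 fell (3.97%) and 17 rose (11.3%), where 0.733% and 5.33% of all unbound rows did. The 35 rows with a peak in 1 list had 3 rises (8.57%) and 0 falls, where 4.15% of all such rows rose and 3.44% fell. The share of bound rows that fell was near that over all bound rows. The difference between bound and unbound rows was not tested.

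At PDGFC, the ligand, every called row rose. The gene spans chr4:156760454-156971799 on the minus strand, and its window held 37 rows, of which 30 were tested in TWIST1FV. At 24 h 10 of them rose and 0 fell, and 3 had risen by 3 h. The median log2 change of the 30 was 1.04. The promoter row chr4:156970402-156971204 held 187 and 240 counts at 0 h, 274 and 325 at 3 h, then 433 and 396 at 24 h in the 2 TWIST1FV libraries. Both 24 h libraries exceeded both 0 h libraries, and the log2 change at 24 h was 0.86 ± 0.18 (SE, adjusted p = 0.00379). WT held 242 and 280 counts at 0 h, 297 and 305 at 3 h, then 284 and 277 at 24 h, and those at 24 h overlapped those at 0 h. Without 0 h replicate 1 the promoter's change was 0.80 (adjusted p = 0.0528).

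The largest rises at PDGFC were away from the promoter. The row chr4:156986323-156987202, 14524 bp upstream, held 6 and 10 counts at 0 h, 14 and 28 at 3 h, then 44 and 46 at 24 h and had the largest called rise of the locus, 2.38 ± 0.49 (SE, adjusted p = 0.00277). An intron row, chr4:156805646-156806466, held 46 and 34 counts at 0 h, 68 and 83 at 3 h, then 172 and 172 at 24 h against 46 and 20 counts at 0 h, 46 and 60 at 3 h, then 38 and 58 at 24 h in WT. Its change was 1.98 ± 0.31 (SE, adjusted p = 2.73e-04), and neither row overlapped a WT TWIST1 peak. A row 3523 bp upstream, chr4:156975322-156975822, had already risen at 3 h, with 28 and 54 counts at 0 h, 82 and 110 at 3 h, then 102 and 143 at 24 h and a 3 h change of 1.29 ± 0.34 (SE, adjusted p = 0.0335). That 3 h call was lost without 0 h replicate 1 (1.02, adjusted p = 0.263) and without 3 h replicate 2 (1.11, adjusted p = 0.121).

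Few PDGFC rows were bound. A TWIST1 peak of both WT lists touched 7 of its rows, and the strongest one, chr4:156685633-156686865, lay 86852 bp downstream of the nearest start, with -log10 q of 238.1 and 268.7. Against WT the response was higher at 2 rows at 24 h. They lay just inside the gene at chr4:156968467-156968967, with 1.80 (adjusted p = 0.0312), and at chr4:156969778-156970278, with 1.37 (adjusted p = 0.0275). At 3 h 1 row was higher, chr4:157045482-157045982, which held 0 and 0 counts at 0 h, 8 and 6 at 3 h, then 8 and 4 at 24 h in TWIST1FV and was below the filter there.

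PDGFRA, the receptor of PDGFC, moved the other way. The gene spans chr4:54229280-54298245 on the plus strand, and of its 24 rows 15 were tested, of which 5 fell at 24 h and 0 rose. Their median log2 change was -0.55. A broad TWIST1 peak, chr4:54224757-54229477, covered the promoter and the sequence upstream of it, with -log10 q of 306.5 and 341.8 in WT and 113.0 and 115.9 in TWIST1FV at 0 h. The row 3269 bp upstream, chr4:54224930-54226011, held 834 and 981 counts at 0 h, 554 and 505 at 3 h, then 574 and 305 at 24 h. Every treated library was below both 0 h libraries, with a change of -0.73 ± 0.20 (SE, adjusted p = 0.0417) at 3 h and -1.17 ± 0.20 (SE, adjusted p = 6.00e-04) at 24 h. WT held 823 and 672 counts at 0 h, 919 and 835 at 3 h, then 846 and 770 at 24 h, and the difference in response at 24 h was -1.23 (adjusted p = 2.11e-05). The 3 h call was lost without 0 h replicate 1 (-0.69, adjusted p = 0.133), 0 h replicate 2 (-0.80, adjusted p = 0.0697) or 3 h replicate 2 (-0.62, adjusted p = 0.114).

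The PDGFRA promoter row itself, chr4:54226880-54228476, fell too. It held 1367 and 1751 counts at 0 h, 1060 and 1210 at 3 h, then 1276 and 1022 at 24 h, and the log2 change was -0.55 ± 0.13 (SE, adjusted p = 0.00669) at 24 h. The call was lost without 0 h replicate 2 (-0.53, adjusted p = 0.0791) and without 24 h replicate 2 (-0.44, adjusted p = 0.132). A row 88418 bp downstream, chr4:54365594-54366372, had the largest fall of the locus, from 30 and 40 counts to 14 and 4, -2.06 ± 0.53 (SE, adjusted p = 0.014). That call was also lost without 0 h replicate 2 (-2.01, adjusted p = 0.0538) and without 24 h replicate 2 (-1.47, adjusted p = 0.177).

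PDGFRB had the strongest TWIST1 peaks of the 10 loci in WT and few called rows. The gene spans chr5:150113839-150155872 on the minus strand, and 39 of its 49 rows were tested, of which 2 rose and 2 fell at 24 h. The top peak of WT replicate 1, chr5:150152167-150153669, over an exon of the gene, reached -log10 q of 619.7 and 379.5. The promoter row chr5:150155600-150156100 held 266 and 353 counts at 0 h, 263 and 230 at 3 h, then 315 and 241 at 24 h. As CPM these were 39.4 and 43.0, 37.3 and 31.6, then 36.7 and 31.9, so that every treated library lay below both 0 h libraries, and the change was not called (-0.26 ± 0.19, SE, adjusted p = 0.456). At the site that kept TWIST1 at 3 h, the row chr5:150157759-150158588 held 480 and 540 counts at 0 h, 521 and 428 at 3 h, then 572 and 445 at 24 h. As CPM the levels of this row overlapped between times, with a change of -0.05 ± 0.17 (SE, adjusted p = 0.916) at 3 h and -0.12 ± 0.17 (SE, adjusted p = 0.734) at 24 h.

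The called rows of the PDGFRB window lay mostly in other genes. The largest fall was within CSF1R, the neighbouring macrophage receptor gene, at chr5:150107882-150108382, from 98 and 107 to 36 and 41 counts (-1.52 ± 0.34, SE, adjusted p = 0.00505). An exon row of PDGFRB, chr5:150152953-150153453, fell by 0.78 on the log2 scale (adjusted p = 0.0403). A row within CDX1, chr5:150167715-150168215, rose from 44 and 60 to 146 and 119 counts at 3 h, 1.41 ± 0.29 (SE, adjusted p = 0.00769), a call lost without 0 h replicate 1 (1.34, adjusted p = 0.0586). A row within HMGXB3, chr5:150020158-150020658, rose from 14 and 20 to 45 and 49 counts (1.37 ± 0.40, SE, adjusted p = 0.0303). Leaving out any 1 of its 4 libraries ended that call, with adjusted p between 0.0527 and 0.213.

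PTCH1, the hedgehog receptor and itself a target of the pathway, had its strongest TWIST1 peak in RS4;11 cells too. The gene's window held 29 rows, 23 of them tested in TWIST1FV, of which 0 rose and 4 fell at 24 h. The peak, chr9:95461961-95463418, lay at an internal start of the gene and not at the canonical start, 95509266. It had -log10 q of 464.7 and 472.8 in WT and 1309.8 in RS4;11. Its row, chr9:95462559-95463545, held 340 and 313 counts at 0 h, 352 and 237 at 3 h, then 413 and 231 at 24 h, with overlapping groups (-0.16 ± 0.25, SE, adjusted p = 0.758). The row next to it, chr9:95460452-95460952, within 1 kb of another PTCH1 start, fell. It held 122 and 116 counts at 0 h, 88 and 34 at 3 h, then 43 and 19 at 24 h, against 176 and 94 counts at 0 h, 154 and 120 at 3 h, then 130 and 108 at 24 h in WT, a change of -2.07 ± 0.44 (SE, adjusted p = 0.00345). The other falls were at chr9:95478351-95478851 (-1.18), at chr9:95478872-95479776 (-1.20), and within FANCC, a DNA repair gene, at chr9:95360414-95361302 (-1.82).

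GAS1 and BOC, the co-receptors, had falls and no called rise. At GAS1, a GPI-anchored protein whose gene lies at chr9:86944362-86947506, 24 of 25 rows were tested, of which 4 fell at 3 h and 8 at 24 h, and 0 rose at either time. The median log2 change at 24 h was -0.94. The row 20916 bp downstream, chr9:86925606-86926590, held 102 and 110 counts at 0 h, 24 and 22 at 3 h, then 14 and 16 at 24 h. Every treated library held at most 24 counts and every 0 h library at least 102, while WT held 122 and 74 counts at 0 h, 108 and 110 at 3 h, then 92 and 68 at 24 h with overlapping groups. The change was -2.15 ± 0.36 (SE, adjusted p = 0.00158) at 3 h and -2.92 ± 0.38 (SE, adjusted p = 4.36e-05) at 24 h, and both calls held with any 1 library left out. The same site is the strongest GAS1 peak of WT, chr9:86925414-86926400, with -log10 q of 234.1 and 136.2.

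Rows upstream of GAS1 also fell, while the promoter row was not called. A row 86550 bp upstream, chr9:87034056-87034556, within LINC02893, held 202 and 203 counts at 0 h, 106 and 102 at 3 h, then 56 and 39 at 24 h, against 216 and 182 counts at 0 h, 293 and 217 at 3 h, then 264 and 177 at 24 h in WT. It was 1 of the 2 rows that fell further between 3 and 24 h (-1.29 ± 0.28, SE, adjusted p = 0.0353), a call lost without 3 h replicate 1 (-1.26, adjusted p = 0.0524) and without 24 h replicate 2 (-1.11, adjusted p = 0.269). The row chr9:87007840-87008340 fell by 2.80 ± 0.40 on the log2 scale (SE, adjusted p = 1.18e-04). The promoter row chr9:86947189-86947971 held 310 and 479 counts at 0 h, 334 and 411 at 3 h, then 372 and 376 at 24 h, and its groups overlapped (-0.16 ± 0.18, SE, adjusted p = 0.653).

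BOC, an immunoglobulin-superfamily protein, had the most called falls of the 10 loci by count, though not by share of rows tested. At 24 h 9 of its 32 tested rows fell, against 8 of 24 at GAS1 and 5 of 15 at PDGFRA. The BOC gene spans chr3:113211003-113287459 on the plus strand, and of 34 rows 32 were tested, of which 5 fell at 3 h, 9 fell at 24 h and 0 rose. The median log2 change at 24 h was -0.62. An intron row 19679 bp upstream of the nearest start, chr3:113240828-113242019, held 1162 and 1367 counts at 0 h, 604 and 701 at 3 h, then 495 and 456 at 24 h. WT held 1273 and 1200 counts at 0 h, 1409 and 1440 at 3 h, then 1360 and 1293 at 24 h, so that every treated TWIST1FV library was below every WT library. The change was -0.91 ± 0.14 (SE, adjusted p = 8.92e-04) at 3 h and -1.52 ± 0.14 (SE, adjusted p = 1.88e-06) at 24 h. TWIST1 peaked there at chr3:113240307-113242487 with -log10 q of 282.6 and 286.6.

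A neighbouring intron row, chr3:113246789-113247289, fell in steps. It held 295 and 444 counts at 0 h, 136 and 152 at 3 h, then 80 and 64 at 24 h, a change of -2.45 ± 0.23 (SE, adjusted p = 1.88e-06) at 24 h and of -1.16 ± 0.23 (SE, adjusted p = 0.0245) between 3 and 24 h, the latter call lost without 24 h replicate 2 (-1.06, adjusted p = 0.163). The largest fall of the locus was 29978 bp upstream, at chr3:113180525-113181025, within NEPRO-AS1, from 164 and 202 to 24 and 28 counts (-2.91 ± 0.39, SE, adjusted p = 7.09e-05). A row without a TWIST1 peak in either WT list, chr3:113247981-113248481, had the largest 3 h fall of the locus, with 56 and 80 counts at 0 h, 6 and 16 at 3 h, then 28 and 24 at 24 h. Its change was -2.56 ± 0.45 (SE, adjusted p = 0.00252) at 3 h and -1.48 ± 0.41 (SE, adjusted p = 0.0208) at 24 h. The promoter row chr3:113210723-113211776 held 195 and 317 counts at 0 h, 132 and 189 at 3 h, then 143 and 148 at 24 h and fell by 24 h, -0.90 ± 0.24 (SE, adjusted p = 0.0166). That call was lost without 24 h replicate 1 (-0.76, adjusted p = 0.12) and without 0 h replicate 2 (-0.69, adjusted p = 0.225).

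**Figure D3:**
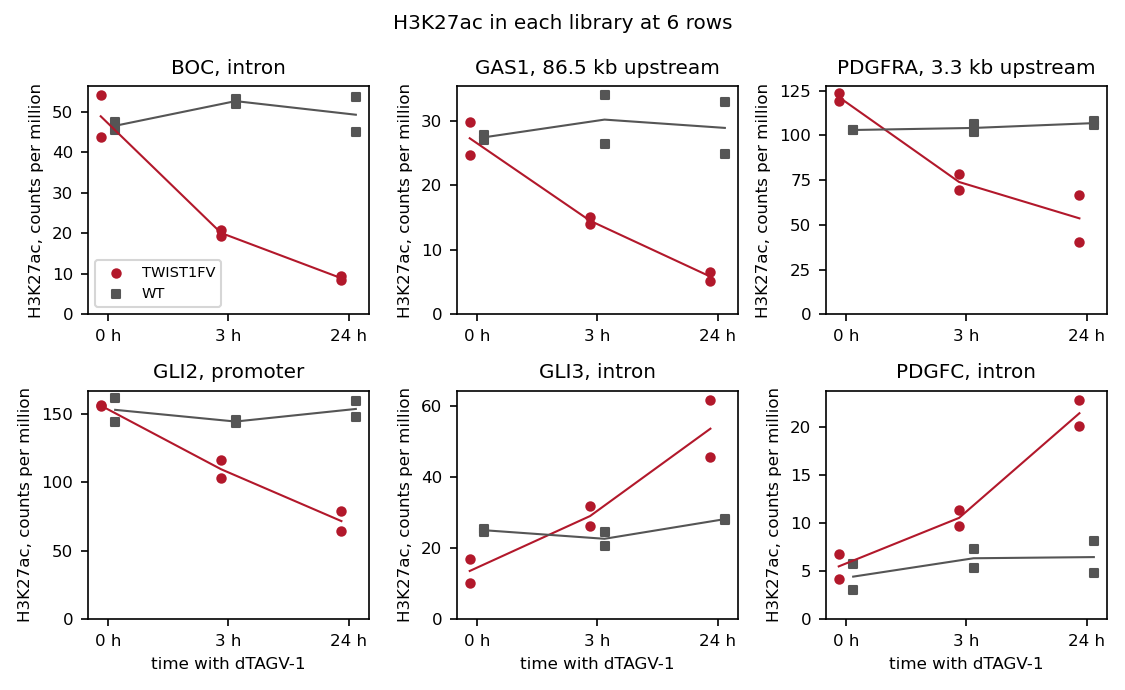
H3K27ac in CPM (counts scaled to library size, y axis) in each library of TWIST1FV and WT cells at 0, 3 and 24 h of dTAGV-1 (x axis), for the row with the smallest 24 h p at 6 loci, with lines through the means of 2 libraries. The rows of BOC, GAS1, PDGFRA and GLI2 fall in TWIST1FV and those of GLI3 and PDGFC rise, while the WT points stay near their 0 h level.

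HHIP, the hedgehog antagonist, had few called rows. Of 24 rows 20 were tested, of which 2 rose and 1 fell at 24 h. The row 85527 bp downstream, chr4:144820394-144821125, held 48 and 64 counts at 0 h, 34 and 16 at 3 h, then 8 and 8 at 24 h, against 32 and 28 counts at 0 h, 34 and 42 at 3 h, then 44 and 30 at 24 h in WT, a change of -2.89 ± 0.49 (SE, adjusted p = 5.52e-04). An exon row, chr4:144712017-144712517, rose from 8 and 8 to 34 and 22 counts (1.67 ± 0.53, SE, adjusted p = 0.0443), and leaving out any 1 of its 4 libraries ended that call (adjusted p between 0.0634 and 0.235). The other rise was at chr4:144587553-144588309 (1.64). The promoter row chr4:144645544-144647682 held 90 and 56 counts at 0 h, 66 and 63 at 3 h, then 116 and 124 at 24 h, with no call (0.58 ± 0.32, SE, adjusted p = 0.294). The strongest TWIST1 peak was 83134 bp upstream, at chr4:144562083-144563022 (229.0 and 102.4).

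The 3 GLI factors, which carry the hedgehog signal to the genome, differed from each other. GLI1, whose level is a standard readout of hedgehog activity, had 0 called rows of 16 tested. Its promoter row chr12:57459528-57460028 held 36 and 55 counts at 0 h, 68 and 74 at 3 h, then 70 and 48 at 24 h, and those at 24 h overlapped those at 0 h (0.27 ± 0.33, SE, adjusted p = 0.683). The strongest peak in its window lay in ARHGAP9 and MARS1, chr12:57481499-57482197, with -log10 q of 19.7 and 17.6.

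GLI2, the main activator of the pathway, had called falls at its promoter rows. Of 45 rows 40 were tested, of which 2 fell at 3 h, and 6 fell and 3 rose at 24 h. The promoter row chr2:120735225-120737427 held 1054 and 1280 counts at 0 h, 818 and 750 at 3 h, then 678 and 485 at 24 h, and every 24 h library was below every 0 h library. WT held 1292 and 939 counts at 0 h, 1236 and 1192 at 3 h, then 1272 and 1055 at 24 h. The change was -1.12 ± 0.15 (SE, adjusted p = 7.12e-05), and it was called with any 1 library left out. The strongest TWIST1 peak of the locus, chr2:120734760-120736227, lies on it (264.9 and 235.4). Rows at a second start fell too, chr2:120797272-120797772 by 2.07 and chr2:120797800-120798300 by 1.87 on the log2 scale. An intergenic row 52071 bp upstream, chr2:120682686-120683552, fell from 38 and 74 to 8 and 10 counts, -2.69 ± 0.46 (SE, adjusted p = 5.98e-04). Its 3 h value, -1.51 (adjusted p = 0.0445), was past the threshold only with all 4 libraries.

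The GLI2 rises were intronic and unbound. The row chr2:120893831-120894647, 96486 bp downstream of the nearest start, held 125 and 90 counts at 0 h, 178 and 130 at 3 h, then 362 and 277 at 24 h. Its change was 1.43 ± 0.27 (SE, adjusted p = 0.00138). The rows chr2:120858400-120859631 and chr2:120892842-120893776 both rose by 1.33. No WT list had a TWIST1 peak over any of the 3.

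GLI3, which mainly yields the repressor of the pathway, had more called rises than called falls. Of 65 rows 61 were tested, of which 2 rose at 3 h, and 8 rose and 2 fell at 24 h, with a median log2 change of 0.43. An internal promoter without a TWIST1 peak, chr7:42152223-42153215, had the largest called rise. It held 4 and 30 counts at 0 h, 34 and 54 at 3 h, then 154 and 98 at 24 h, against 20 and 46 counts at 0 h, 30 and 20 at 3 h, then 20 and 22 at 24 h in WT, a change of 2.81 ± 0.50 (SE, adjusted p = 8.56e-04). Its 0 h libraries lay far apart, and the change was 4.66 without 0 h replicate 2 and 2.07 without 0 h replicate 1. An intron row, chr7:42192711-42193588, held 96 and 152 counts at 0 h, 222 and 274 at 3 h, then 376 and 396 at 24 h, and every treated library exceeded both 0 h libraries (1.06 ± 0.21 (SE, adjusted p = 0.00667) at 3 h and 1.55 ± 0.21 (SE, adjusted p = 8.50e-05) at 24 h). The intron row chr7:42024041-42024541, with TWIST1 peaks at -log10 q of 29.9 and 41.9 in WT, held 68 and 140 counts at 0 h, 184 and 233 at 3 h, then 391 and 467 at 24 h, against 203 and 161 counts at 0 h, 178 and 202 at 3 h, then 224 and 202 at 24 h in WT. It changed by 1.08 ± 0.25 (SE, adjusted p = 0.0176) at 3 h, a call lost without 0 h replicate 1 (0.77, adjusted p = 0.205), and by 1.98 ± 0.25 (SE, adjusted p = 4.07e-05) at 24 h.

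The GLI3 promoter row with the highest level was not called. This row, chr7:42236223-42236723, held 290 and 510 counts at 0 h, 337 and 480 at 3 h, then 348 and 493 at 24 h, overlapping at all times (0.01 ± 0.23, SE, adjusted p = 0.991). The falls were at chr7:41912338-41912838, from 52 and 58 to 20 and 16 counts (-1.72 ± 0.40, SE, adjusted p = 0.00671), and at chr7:42340133-42340953 (-0.62), under the strongest TWIST1 peak of the locus, chr7:42340341-42341105 (192.7 and 183.8). Without 24 h replicate 2 the former was -1.62 (adjusted p = 0.0649).

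Degrading the homeodomain factors for 3 or 24 h gave 0 called rows at the loci without a block on the clone. Over all rows the share called was 0% at both times in ALX1FV, 0% at 3 h and 0.0279% at 24 h in ALX1FV ALX4-, 0% at 3 h and 0.000827% at 24 h in PRRX1FV, and 0.00179% and 0.00448% in MSX1FNV. At an unadjusted p under 0.05, 6 and 5 of 281 rows passed in ALX1FV at 3 and 24 h, 14 and 26 of 289 in ALX1FV ALX4-, 13 and 8 of 279 in PRRX1FV, 7 and 9 of 272 in MSX1FNV, and 13 and 4 of 292 in WT. Over all rows 1.61% and 1.84% passed in ALX1FV, 4.57% and 6.34% in ALX1FV ALX4-, 3.91% and 4.23% in PRRX1FV, 2.85% and 3.57% in MSX1FNV, and 3.42% and 3.58% in WT. DESeq2 also called 0 in each. With the clone as a block, 1 row was called in ALX1FV ALX4- at 24 h, a fall, where 0.139% of all rows fell and 0.0164% rose. It was the BOC intron row chr3:113240828-113242019. It held 571, 426 and 358 counts at 0, 3 and 24 h in replicate 1 and 671, 556 and 396 in replicate 2, so that it fell in both. The change was -0.57 ± 0.11 (SE, adjusted p = 0.0069).

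Rows also differed between lines before treatment. At 0 h ALX1FV ALX4- was lower than ALX1FV in 15 of 338 rows and higher in 1, where 2.33% and 0.731% of all rows were. BOC had 7 of the 15, GAS1 3, GLI3 2, and PDGFRB, GLI2 and PTCH1 1 each, and the higher row was at BOC too. Line, clones and handling cannot be told apart in this comparison, since the loss of ALX4 was present in 1 line only. In a fit of those 2 lines alone 6 rows were lower and 1 higher, and leaving out 1 library left 4 to 11 lower. Lines whose labels name no loss of ALX4 differed from WT at 0 h as well. PRRX1FV was lower than WT in 12 rows and higher in 4, where 1.8% and 0.855% of all rows were, and MSX1FNV was lower in 14 and higher in 3, where 1.51% and 1.09% were. TWIST1FV was lower in 1 and higher in 0, where 0.0384% and 0.0361% were, and ALX1FV lower in 0 and higher in 1, where 0.154% and 0.258% were. These comparisons with WT share its libraries.

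BOC carried the differences that held with any 1 library left out. The intron row chr3:113246789-113247289 held 299 and 276 counts in ALX1FV and 120 and 156 in ALX1FV ALX4-, a difference of -1.37 ± 0.21 (SE, adjusted p = 7.07e-06). At chr3:113240828-113242019 the counts were 892 and 942 and 571 and 671 (-0.86 ± 0.14, SE, adjusted p = 1.98e-05). At chr3:113275793-113276293 they were 310 and 392 and 235 and 230 (-0.90 ± 0.16, SE, adjusted p = 6.88e-05). The first pair of rows also fell when TWIST1 was degraded. The higher row, chr3:113151333-113152172, held 36 and 34 and 103 and 95 counts (1.17 ± 0.33, SE, adjusted p = 0.0286), a call that ended with any 1 library left out (adjusted p between 0.0646 and 0.273).

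The other lower rows depended on single libraries. The BOC promoter (-0.83), a second promoter row (-0.97) and 2 further intron rows (-1.04 and -1.18) lost their call in at least 2 of the 4 fits that left a library out. So did the GLI2 promoter row, which held 703 and 903 counts in ALX1FV and 846 and 556 in ALX1FV ALX4- (-0.53 ± 0.13, SE, adjusted p = 0.00714). Scaled to library size, as CPM, its levels were 117.2 and 129.6 against 93.5 and 77.1. At GAS1 the row under the strongest TWIST1 peak held 34 and 153 counts in ALX1FV and 50 and 32 in ALX1FV ALX4-, which as CPM were 5.67 and 21.95 against 5.53 and 4.44. The difference (-1.48, adjusted p = 0.0128) was -0.18 (adjusted p = 0.965) without ALX1FV replicate 2. The other GAS1 rows (-1.24 and -1.76), the GLI3 rows (-1.22 and -0.95), the PDGFRB row within CSF1R (-1.16) and the PTCH1 row at 95460452 (-1.05) also lost their call in 2 to 4 of the 4 fits. Without ALX1FV ALX4- replicate 2 the value was -0.31 at the GLI2 promoter and -0.55 at the BOC promoter, and without ALX1FV replicate 1 that of the BOC row at 113247981 was -0.69.

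**Figure D4:**
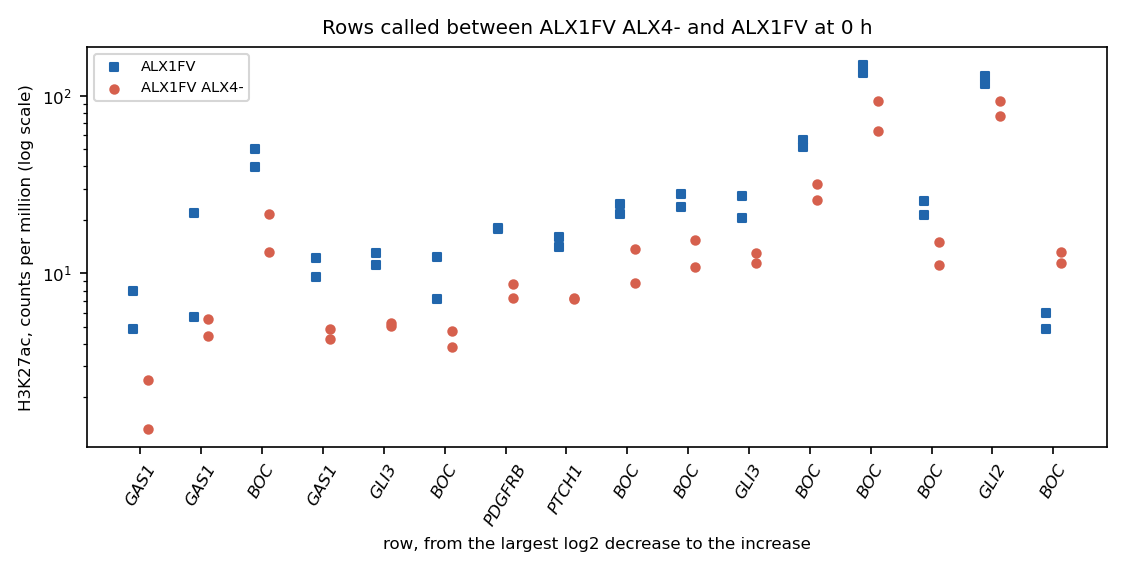
H3K27ac in CPM (counts scaled to library size, y axis, log scale) in each 0 h library of ALX1FV and ALX1FV ALX4- for the 16 rows called between the lines, from the largest decrease to the increase. In the GAS1 row with 34 and 153 counts in ALX1FV the lower ALX1FV point, 5.67 CPM, lies just above the higher ALX1FV ALX4- point, 5.53 CPM, and the last row, at BOC, is the higher one.

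Promoter levels at 0 h separated some lines and not others. The BOC promoter row held 11.1 and 15.0 CPM in ALX1FV ALX4-, 17.7 and 22.3 in MSX1FNV, 20.8 and 21.3 in PRRX1FV, 21.2 and 25.7 in ALX1FV, 31.1 and 31.9 in WT, and 28.9 and 38.6 in TWIST1FV. ALX1FV ALX4- lay below every other line, and WT and TWIST1FV overlapped. The PDGFRA promoter row ran from 160.6 and 163.0 in PRRX1FV to 202.5 and 213.4 in TWIST1FV, with WT (192.7 and 209.6) overlapping TWIST1FV. The GLI3 promoter row ran from 32.8 and 33.0 in PRRX1FV to 53.4 and 57.9 in WT, with ALX1FV, ALX1FV ALX4-, TWIST1FV and WT each overlapping the next in that order. These are levels of 1 row across lines, given without a test.

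TWIST1 itself was still listed at most of these sites without ALX4. Of the 111 reference peaks at the loci, 87.4% and 84.7% were overlapped by the 2 ALX1FV ALX4- lists, against 76.9% and 71.4% of all reference peaks. The TWIST1FV lists at 0 h overlapped 78.4% and 66.7%, against 67.2% and 54.4% of all. The lists of AP2a, another crest factor, overlapped 31.5% and 36.9%, against 21.3% and 23.3%, and the RS4;11 TWIST1 list 18.0%, against 20.3%. Merged over 9 hCNCC TWIST1 lists, the loci held 204 sites, of which 62 were in all 9 lists and 47 in 1. GLI3 had 41 sites and PDGFRA 9.

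In HEK293 cells given V5-TWIST1(WT), more sites at the loci were listed with ALX4 in every replicate than without it in every replicate. The 3 lists of V5-TWIST1(WT) with ALX4 had 0.228%, 0.169% and 0.195% of their peaks at the loci (0.197% ± 0.0293, SD, n = 3), and the 3 without ALX4 had 0.151%, 0.169% and 0.180% (0.167% ± 0.0148, SD, n = 3). The groups overlapped, and p was 0.2 in an exact two-sided permutation test that cannot go below 0.10. The lists with ALX4 held 29430, 41369 and 65005 peaks in all and those without held 30471, 22465 and 56014, and the part of list length was not tested. Merged over the 6 lists there were 180 sites. Of these 14 (7.78%) were in all 3 lists with ALX4 and in none without, where 4.84% of all sites were, and 0 were in the converse class, where 1.31% of all sites were. A further 12 (6.67%, against 6.23%) were in all 6 lists. Lists made with the TWIST1 antibody, 1 per condition, had like shares of peaks at the loci with and without ALX4. These were 0.256% with and 0.253% without for V5-TWIST1, and 0.164% with and 0.165% without for TWIST1 from the pCAG plasmid.

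The 14 sites lay at 7 loci. The strongest by its best list was at PTCH1, chr9:95516455-95517140, with -log10 q of 4.31, 42.3 and 34.4 in the 3 lists. PDGFC and GLI3 had 4 each and PTCH1 2, and PDGFRB, BOC, GAS1 and GLI2 had 1 each. The PDGFRB site was chr5:150158148-150158615 (16.6, 27.3 and 21.6), the site that also kept TWIST1 at 3 h in crest cells. The BOC site was chr3:113180359-113181034 (9.25, 20.0 and 21.5), which covers the window of the largest BOC fall printed above. The GLI2 promoter site chr2:120734989-120736218 (7.81, 3.98 and 12.4) was also listed for 9 of 13 TWIST1 variants with ALX4 and for 0 of 13 without. Of the 14 sites 11 were listed for more variants with ALX4 than without and 1 for as many. The other 2 went the other way, a GLI3 site at 42240424 with 3 against 6 variants and a PDGFC site at 156948038 with 4 against 5. The 14 sites were chosen by their lists with ALX4, and variants were not counted over all sites of that class. The variant counts therefore do not set these loci apart from other such sites. HEK293 cells are kidney cells with their own open chromatin, and each variant had 1 list in either condition.

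The composite words differed in where they were listed. The GLI3 word CAGATGTATTCAATTA, chr7:42253157-42253172, lay under TWIST1 peaks of WT (40.9 and 14.4) and of ALX1FV ALX4- (23.3 and 23.5), and in HEK293 it was listed in replicates 1 and 3 of V5-TWIST1(WT) with ALX4 (5.14 and 5.91) and in none without. Its H3K27ac row, chr7:42252950-42253450, held 16 and 22 counts at 0 h, 4 and 10 at 3 h, then 12 and 16 at 24 h and was not called. The PTCH1 word CATCTGGATTTAATTA, chr9:95572604-95572619, lay under peaks of WT (21.7 and 10.0) and ALX1FV ALX4- (17.7 and 28.4), and was listed in all 3 lists of V5-TWIST1(WT) with ALX4 (4.95, 6.44 and 5.15) and in none of the 3 without. It was also listed in HEK293 for V5-TWIST1 with PHOX2A (11.6) and with PRRX1b (1.4). With ALX4 the variants L138F (27.35), L138Y (19.03), NEUROD1L (8.19) and NEUROG2ins (5.88) listed it too, and no variant did without ALX4. Neither of the TWIST1 antibody lists made with ALX4 held it. The GAS1 word TAATTGTGAGCATATG, chr9:87020443-87020458, lay under peaks of WT (8.36 and 11.8) and was in no ALX1FV ALX4- list and no HEK293 list. In TWIST1FV at 0 h, a line whose labels name no loss of ALX4, replicate 1 listed it (5.13) and replicate 2 did not. The PTCH1 and GAS1 words lay in no row.

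In mouse embryos Twist1 was listed at all 10 loci. The lists held 107 of 41893 peaks at the loci in FNP, 59 of 17938 in Mx, 71 of 24933 in Md, 137 of 46082 in FL and 129 of 40430 in HL. With 1 list per tissue and lists of unequal length, differences between tissues have no replicate check. Merged, there were 170 sites, of which 50 (29.4%) were in all 5 tissues, 55 (32.4%) only in limbs and 22 (12.9%) only in the face. Over all sites these shares were 16.9%, 30.7% and 22.9%. Pdgfc had 15 and 10 peaks in FL and HL against 4, 1 and 5 in FNP, Mx and Md, and its strongest limb peak, 58799 bp downstream of a start in FL, was not the strongest in any face tissue.

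Some mouse sites led in every tissue. The strongest Gli2 peak lay over the promoter in all 5 lists, with -log10 q of 560.2, 113.8, 110.4, 312.8 and 219.1 in FNP, Mx, Md, FL and HL, as the strongest human GLI2 peak did in both WT lists at 0 h. In the hCNCC list made with the Abcam antibody another human site, 22336 bp downstream of a start, led (252.4 against 179.2 at the promoter). The strongest Ptch1 peak lay between 10295 and 10607 bp downstream of a start in all 5. The strongest Pdgfra peak lay 1900 to 2133 bp upstream of the gene in FNP, Mx, FL and HL. In Md a separate site led, 272 bp upstream. For Gas1 the strongest peak was 53880 to 54030 bp upstream in the face tissues and 78017 and 78076 bp downstream in the limbs. For Boc it was 56328 to 56424 bp upstream in Mx, Md, FL and HL and 27154 bp downstream in FNP.

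**Figure D5:**
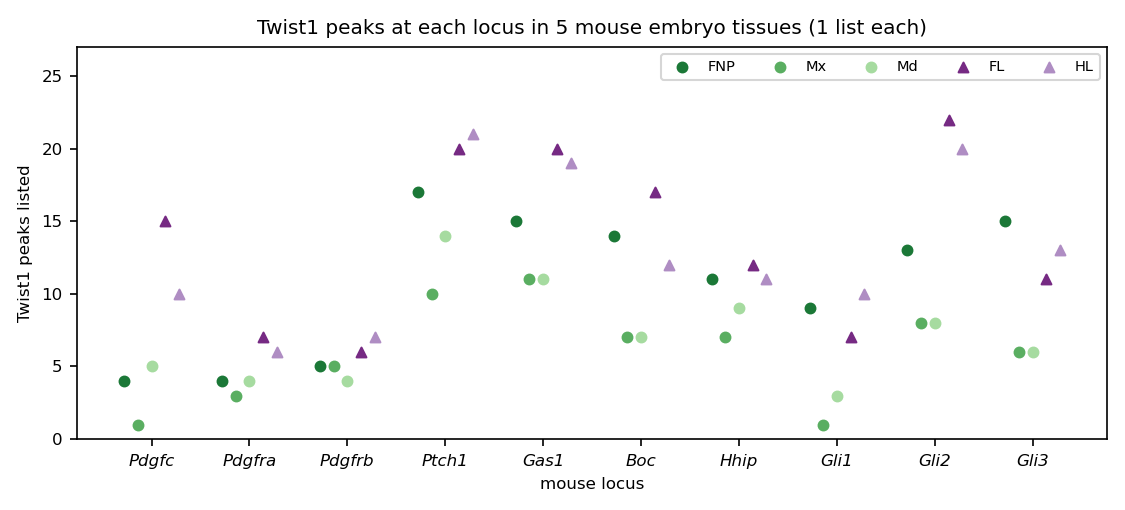
Number of Twist1 peaks listed at each mouse locus (y axis) in FNP, Mx, Md, FL and HL of mid-gestation embryos, 1 list per tissue. Pdgfc has 15 and 10 peaks in the limbs and at most 5 in a face tissue, while the lists also differ in length, from 17938 to 46082 peaks.

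The other PDGF and hedgehog genes, 19 in all with 572 rows, were read in the same way. Among them are the ligands PDGFA and SHH, the transducer SMO and the co-receptor CDON. In TWIST1FV 5 of their 378 tested rows rose and 7 fell at 3 h, where 1.01% of all rows rose and 4.28% fell. At 24 h 20 of the 378 rose and 23 fell, where 4.28% of all rows rose and 9.49% fell. The 24 h rises were at 10 genes and the falls at 8. Their median log2 change at 24 h was 0.08. CDON, the relative of BOC, had 4 rises and 5 falls among 54 tested rows, and SHH had 0 called among 5. In ALX1FV ALX4- against ALX1FV at 0 h 4 of 486 were higher and 5 lower, where 0.731% and 2.33% of all rows were.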

How the data were processed

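H3K27ac was tested as the whole-number read counts that the authors deposited, 1 table for each of 6 lines over the same 213151 ATAC-seq peaks, with no normalisation. The deposited peak lists give, by the narrowPeak column order, a whole-number score, a fold enrichment and a -log10 p and -log10 q for each peak. These are the authors' values, and the smallest -log10 q was 1.3. Per the submitters' processing notes, Bowtie2 2.4.1, SAMtools 1.10, MACS2 2.2.7.1 and deepTools 3.5.0 were used, and the labels name hg38 and mm39. How mates were counted is not given in the sources used here. Each list belongs to 1 library, and repeated intervals were merged, keeping the highest -log10 p (2285687 lines, 1977658 peaks).

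Members were the regions within 100 kb of a transcript start (GENCODE 44 for human, M39 for mouse). The members, gene lists and tests were chosen with earlier results of these data known. Counts were tested by the quasi-likelihood F test of edgeR 4.0.16 in R 4.3.3, after TMM scaling and filterByExpr, with a Benjamini-Hochberg adjusted p of 0.05 over all rows tested, in each line alone. Differences between lines came from a joint fit of 36 libraries in 18 groups (174645 rows tested). A standard error is the log2 change divided by the square root of F. The script was tested on simulated data. The scaling takes most rows as unchanged, and the spike-in reads were not used, so a shift of all rows together would not be seen. Overlaps needed 1 bp. Python 3.11.15, pandas 2.3.3, SciPy 1.17.1, pysam 0.24.0 and matplotlib 3.10.9 did the rest, and promoter means used CPM over TMM-scaled totals.

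Named rows were, for each gene, the promoter row (within 1 kb of a start) with the highest mean count, the called row with the largest change in each direction in each TWIST1FV contrast against 0 h, and the TWIST1 peak with the highest -log10 q in WT at 0 h replicate 1. All rows called in another contrast and all V5 peaks of hCNCC lines, up to 20, and the top mouse peak per tissue were also named. Other rows printed were chosen after their values were seen. Libraries of the same clone are paired in ALX1FV, ALX1FV ALX4- and PRRX1FV, per the labels' clone names. The correlation of their deviations over 55566 rows was 0.498 to 0.517, 0.063 to 0.134 and 0.062 to 0.072. In TWIST1FV and WT, where the labels do not tie the numbers to a clone or day, it was 0.212 to 0.302 and 0.122 to 0.128, over 0.1 at each pair of times. Alternatives were DESeq2 1.42.0, library size without TMM, no filter, a replicate block, a 50 kb window, a fit of the 2 lines concerned, stricter peak thresholds, and leaving out each library.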

Additional observations from a re-analysis of the deposited data

Results flagged for a closer look

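The difference between the responses of TWIST1FV and WT cells to dTAGV-1 was tested as an interaction in the joint edgeR fit. Among named rows other than each gene's promoter row, it passed an adjusted p of 0.05 at 14 pairs of row and time. The promoter rows were left out of this list, whatever their result. The listed rows were named for the largest called changes in TWIST1FV alone, and the interaction shares those libraries. That choice favours rows that pass and larger differences. Values are the log2 response of TWIST1FV minus that of WT.

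At 3 h the response was lower in TWIST1FV at the PDGFRA row 3269 bp upstream (-0.73, adjusted p = 0.0452), at the GAS1 row 20916 bp downstream (-2.10, adjusted p = 0.0139) and at the unbound BOC intron row (-2.64, adjusted p = 3.48e-04). It was higher at the bound GLI3 intron row (1.23, adjusted p = 0.0294). The PDGFRA difference lost its call without any 1 of its 8 libraries, the GLI3 difference without 6 of the 8 and the GAS1 difference without 4 of the 8.

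At 24 h it was higher at the GLI3 internal promoter (3.55 (adjusted p = 8.09e-05), and 5.42 without TWIST1FV 0 h replicate 2). The GLI2 intron row 96486 bp downstream of its nearest start had a higher response too (1.41, adjusted p = 0.00345). It was lower at the BOC row 29978 bp upstream (-2.84, adjusted p = 5.95e-08), the HHIP row 85527 bp downstream (-3.12, adjusted p = 0.00111) and the GAS1 row 20916 bp downstream (-2.58, adjusted p = 8.63e-04). The GLI2 row 52071 bp upstream (-2.39, adjusted p = 0.00999), the PDGFRA row 88418 bp downstream (-2.21, adjusted p = 0.0141) and the PTCH1 row at 95460452 (-1.85, adjusted p = 0.00225) were lower too. So were the GLI3 row at 41912338 (-1.58, adjusted p = 0.0124) and the PDGFRB row within CSF1R (-1.43, adjusted p = 0.0115). No group had 4 or more samples, so no sample was tested as standing apart.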

How the results depend on the processing

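With the replicate number as a block, rows called at the loci rose to 17 higher and 27 lower at 3 h, 7 and 7 between 3 and 24 h, 10 and 17 for the difference in response at 3 h and 20 higher for it at 24 h. The labels do not say what the number marks in TWIST1FV and WT. The block gave 1 called row in ALX1FV ALX4- at 24 h, and moved no other count of calls by over 1.5 times. Within 50 kb, 1 row fell further between 3 and 24 h and 0 were higher without ALX4. In fits of the 2 lines concerned, 2 rows had a higher response at 3 h, and 6 were lower without ALX4. With DESeq2, library size alone or no filter, no count moved by over 1.5 times. A block for the ALX4 comparison at 0 h was not run.

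Leaving out 1 library gave, in TWIST1FV, 1 to 6 rises and 7 to 12 falls at 3 h, 15 to 23 and 22 to 31 at 24 h, and 0 to 1 and 0 to 6 between 3 and 24 h. The difference in response was higher in 1 to 4 and lower in 4 to 7 rows at 3 h, and in 5 to 10 and 18 to 23 at 24 h. Without ALX4, 0 to 1 rows were higher and 4 to 11 lower. ALX1FV ALX4- at 24 h had 0 to 1 called rows, the BOC row chr3:113240828-113242019 without 0 h replicate 1. The TWIST1 overlap share differed by -83.5 points between lines (-74.3 at a reciprocal overlap of 50%, and -89.4 to -77.5 without 1 replicate, with a block p of 0.5). The HEK293 difference was 0.0306 points (0.0158 within 50 kb, and 0.0155 to 0.0447 without 1 replicate, with a block p of 0.25).

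Only promoter rows without a call changed direction. Without 1 library their 3 h values ran from -0.13 to 0.35 at GLI3, -0.45 to 0.19 at PTCH1, -0.62 to 0.40 at HHIP and -0.17 to 0.12 at GAS1. At 24 h they ran from -0.33 to 0.34 at GLI3, -0.51 to 0.16 at PTCH1 and -0.34 to 0.0046 at GAS1. GAS1 at 3 h was 0.0696 with library size alone and 0.0057 with no filter, and GLI3 at 24 h was -0.0093 with no filter. The cause was not tested. Of the other values of named rows, 104 lost and 1 gained a call when a library was left out (227 kept theirs), and 23 lost and 4 gained one under other settings (212 kept theirs). Rows of few counts, such as those under 20, limit what a fold change can show.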
